A study of Homo sapiens with 12 samples.

Results

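The FOS and JUN factors described here are 9 genes of the 62069 in the count table: FOS, FOSB, FOSL1 and FOSL2 of the FOS family, JUN, JUNB and JUND of the JUN family, and BATF and BATF3 of the BATF family. The rule takes them by symbol, through the Ensembl identifiers, although the family was picked with earlier results of these data known. RNA was measured by poly-A sequencing in CUTLL1 cells, a human line from T-cell acute lymphoblastic leukaemia that carries a rearranged, active NOTCH1 gene. Compound E is an inhibitor of gamma-secretase (GSI), the protease that frees the active part of NOTCH1, and DMSO is its solvent. The 4 groups of 3 libraries each were 1 µM Compound E for 48 h, DMSO for 48 h, 1 µM Compound E for 12 h and DMSO for 12 h. All came from this single line, and whether the 3 libraries of a group came from separate cultures is not given, so the p-values speak of the spread among these libraries alone, which may be technical.

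FOS and JUN proteins are basic leucine zipper (bZIP) transcription factors that bind DNA in pairs as activator protein 1 (AP-1). JUN proteins can pair with themselves or with a FOS protein, whereas FOS proteins need a JUN partner. BATF and BATF3 are short relatives without a transactivation domain that pair with JUN proteins, and in lymphocytes they act together with IRF4 and IRF8. FOS, FOSB, JUN and JUNB are immediate early genes, transcribed within minutes of a growth or antigen receptor signal. That signal acts through MAP kinases and, for FOS, serum response factor. AP-1 with NFAT drives cytokine genes such as IL2 in activated T cells.

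Recovered depth ran from 73939612 to 160702764 reads per library. All 12 T lineage markers were detected in every library, with EPCAM, KRT19 and MS4A1 at 0 in all 12 libraries, while CD79A, a B lineage gene, lay between 659 and 3042. Of the myeloid and dendritic markers, ITGAM lay between 160 and 490, CD14 between 9.40 and 33.6 and LYZ between 7.99 and 22.6. COL1A1, a fibroblast marker, lay between 1.27 and 10.3. NRARP, a direct NOTCH1 target, averaged 1701 ± 337 in libraries labelled GSI 48 h, 3030 ± 627 in DMSO 48 h, 21930 ± 4507 in GSI 12 h and 42352 ± 6407 in DMSO 12 h (SD, n = 3 each). DTX1, another target, had means of 8245 ± 887 under GSI 48 h, 11601 ± 1137 under DMSO 48 h, 61031 ± 11544 under GSI 12 h and 84822 ± 9059 under DMSO 12 h. HES1 went the other way at 12 h, with 5316 ± 1632 in GSI 12 h and 4664 ± 260 in DMSO 12 h, and had 2356 ± 266 in GSI 48 h and 2993 ± 572 in DMSO 48 h. For all 3 the time labels separated the means by more than the treatment labels did, and groups are named below as labelled. A list of 35 hypoxia response genes set the GSI libraries apart, and less so the 2 numbered 2. Its level, the median log2 value relative to the mean of the 12 libraries, was 1.05, −0.25 and 0.63 in libraries 1, 2 and 3 labelled GSI 48 h and −0.72, −0.80 and −0.56 in DMSO 48 h. At 12 h it was 1.46, 0.17 and 1.72 in the GSI libraries and −0.71, −0.71 and −0.69 in the DMSO libraries. In bulk libraries fewer cells of a type and less RNA per cell cannot be told apart.

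JUN family transcripts made up most of the messenger RNA of these 9 genes, with 88.8% ± 2.99 of their summed level per kb in GSI 48 h libraries, 84.1% ± 2.57 in DMSO 48 h, 83.3% ± 1.37 in GSI 12 h and 81.1% ± 3.00 in DMSO 12 h (SD, n = 3 each). On a scale of normalised reads per kb of annotated exon, JUND was the most abundant member, at 4178 ± 762 (SD over the 12 libraries), followed by JUNB at 1419 ± 133. Exons of JUNB share bases with HOOK2 on the opposite strand, so its level and the shares of the summed level are uncertain to that extent. BATF, at 635 ± 181, and JUN, at 617 ± 278, had close means over the 12 libraries and differed in order by group mean between the DMSO and GSI groups. In DMSO 48 h BATF, between 566 and 987, lay above JUN, between 461 and 501, and in DMSO 12 h BATF, between 479 and 911, lay above JUN, between 384 and 421. In the GSI groups they overlapped, with BATF between 369 and 574 and JUN between 501 and 840 in GSI 48 h, and BATF between 539 and 785 and JUN between 497 and 1332 in GSI 12 h. FOS, at 234 ± 123, and FOSL2, at 233 ± 136, overlapped in every group. The other 3 were scarce: FOSL1 had 23.2 ± 18.2, BATF3 11.3 ± 4.56 and FOSB 8.73 ± 3.39 normalised reads per kb. JUND alone held 56.5% of the summed level of the 9 genes, against 19.6% for JUNB, 8.79% for BATF and 8.23% for JUN. JUND is the member known to be expressed without a stimulus in many cell types, JUNB is a weaker activator than JUN and can oppose it, and JUN, the founding member, activates its own promoter. The FOS family together held 4.86% ± 2.75 of the summed level in GSI 48 h libraries, 4.94% ± 0.55 in DMSO 48 h, 8.94% ± 2.51 in GSI 12 h and 8.11% ± 0.53 in DMSO 12 h (SD, n = 3 each). The BATF family held 6.35% ± 1.65 in GSI 48 h libraries, with all 3 libraries below the 3 of DMSO 48 h, which averaged 10.9% ± 2.03; at 12 h the shares were 7.74% ± 1.95 in GSI and 10.8% ± 2.71 in DMSO, and overlapped. These shares were not tested.

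**Figure D1:**
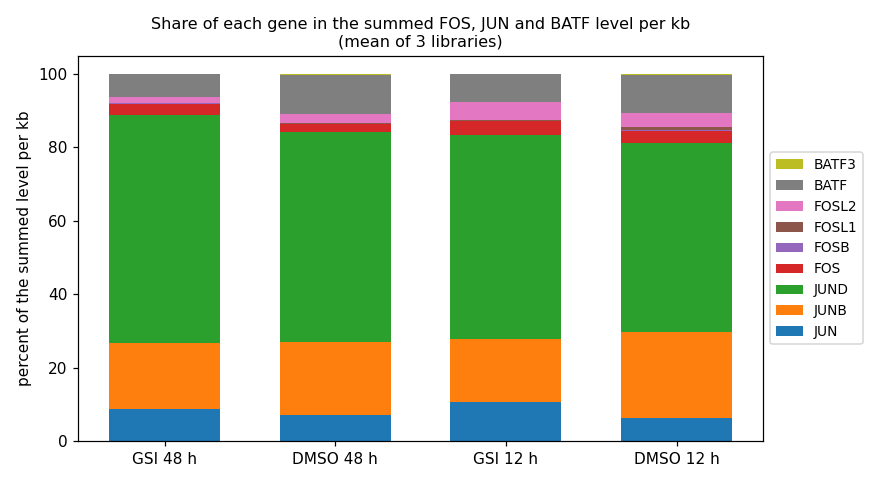
Share of each of the 9 genes in their summed level, in percent of normalised reads per kb of exon, as the mean of 3 libraries in each labelled group. JUND fills more than any other gene in every bar, with 56.5% over the 12 libraries, and FOSL1, BATF3 and FOSB are barely visible.

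The promoters of JUN, JUND and FOSL2 are shown, as the members with a window called by the main limma fit below. FOSL1, also called in that fit, and BATF3 had no window. A RefSeq window of 300 bases on GRCh38.p14, from 250 bases before the annotated start to 50 after it, was found for 7 of the 9 members and is printed 5′ to 3′ on the strand of the gene. JUN lies at chr1:58783998-58784297 on the minus strand, JUND at chr19:18281573-18281872 on the minus strand and FOSL2 at chr2:28392608-28392907 on the plus strand. Capitals mark matches to the motifs searched on both strands: the AP-1 site TGANTCA, the cAMP response element TGACGTCA, the AP-1-like JUN promoter site TGACATCA, the RBPJ core TGGGAA, and the hypoxia cores ACGTG and GCGTG. None of these motifs contains another.
JUN: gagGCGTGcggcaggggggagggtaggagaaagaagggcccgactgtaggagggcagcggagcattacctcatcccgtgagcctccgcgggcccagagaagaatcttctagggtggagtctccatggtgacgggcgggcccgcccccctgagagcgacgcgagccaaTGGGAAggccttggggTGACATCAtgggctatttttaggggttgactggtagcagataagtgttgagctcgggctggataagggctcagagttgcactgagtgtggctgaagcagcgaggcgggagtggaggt
JUND: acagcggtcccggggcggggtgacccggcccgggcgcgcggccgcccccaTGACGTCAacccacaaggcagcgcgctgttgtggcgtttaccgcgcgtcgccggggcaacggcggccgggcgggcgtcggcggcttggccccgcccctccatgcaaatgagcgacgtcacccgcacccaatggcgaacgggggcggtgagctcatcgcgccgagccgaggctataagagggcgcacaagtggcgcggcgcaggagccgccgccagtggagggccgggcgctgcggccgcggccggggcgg
FOSL2: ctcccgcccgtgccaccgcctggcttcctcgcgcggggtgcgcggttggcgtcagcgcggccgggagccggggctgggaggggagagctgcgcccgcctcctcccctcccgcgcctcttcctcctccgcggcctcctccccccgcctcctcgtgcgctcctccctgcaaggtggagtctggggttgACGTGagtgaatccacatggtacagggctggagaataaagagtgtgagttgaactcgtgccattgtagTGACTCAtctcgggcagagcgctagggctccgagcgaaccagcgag
Positions are those of the first matched base, counted from +1 at the start. The JUN window holds GCGTG at −247, TGGGAA at −83 and TGACATCA at −67. The JUND window holds 1 match, TGACGTCA at −200. The FOSL2 window holds ACGTG at −64 and TGACTCA, a form of the AP-1 site, at 5. Among all 35116 windows of this length 7.71% hold TGANTCA, 1.85% TGACGTCA, 2.61% TGACATCA, 24.0% TGGGAA, 21.4% ACGTG and 36.5% GCGTG, so the short cores are common and a match is only a description. Of the other members with a window, BATF holds TGGGAA on the opposite strand at −113 and GCGTG at −48 and −13, and FOS, FOSB and JUNB hold GCGTG only, on either strand.

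The GSI and DMSO labels were compared first at 12 h. JUN and JUND rose and FOSL1 fell in the libraries labelled GSI, and 6 of the 9 did not pass the test. Over all genes 21.5% were called at 12 h, 10.1% higher and 11.4% lower, and nothing is read from 3 calls among 9 genes beyond the genes themselves. Both groups kept apart for 2 members, JUN and JUND, where 36.3% of all genes did so. The members' median log2 fold change was −0.03, beside 0.00064 for all genes.

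JUN (ENSG00000177606) had normalised read counts of 2844, 1759 and 4715 in libraries 1, 2 and 3 labelled GSI 12 h, against 1360, 1492 and 1366 in DMSO 12 h. Every GSI library was above every DMSO library, but library 2 only by a small margin and library 3 by the widest. Its log2 fold change was 1.03 ± 0.27 (SE), about 2.04-fold, with an adjusted p of 0.0192 in limma. JUND (ENSG00000130522) had 8639, 8826 and 8016 in GSI 12 h, against 6536, 6816 and 4944 in DMSO 12 h, also without overlap and with all 3 GSI libraries close together. Its log2 fold change was 0.49 ± 0.14, with an adjusted p of 0.0252 in limma. JUNB (ENSG00000171223) averaged 2594 ± 165 in GSI 12 h and 2674 ± 462 in DMSO 12 h (SD, n = 3 each), and its log2 fold change of −0.03 ± 0.12 turned to 0.06 under upper-quartile scaling. Exons of JUNB share bases with HOOK2 on the opposite strand, and whether the counting used strand is not given, so its values are uncertain.

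Within the FOS family, FOSL1 and FOSL2 lay on opposite sides of zero. FOSL1 (ENSG00000175592, FRA1), whose product is stabilised by ERK signalling, had 21.4, 51.9 and 21.5 in GSI 12 h, against 87.6, 130 and 49.5 in DMSO 12 h. GSI library 2 overlapped DMSO library 3, although each GSI library was below the DMSO library of the same number. The log2 fold change was −1.49 ± 0.43, about 0.357-fold, with an adjusted p of 0.0282 in limma. FOSL1 is scarce, resting on 16 to 41 reads in these GSI libraries and 56 to 130 in the DMSO libraries.

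FOSL2 (ENSG00000075426, FRA2), which like FOSL1 lacks the transactivation domain of FOS, had 3662, 1601 and 3418 in GSI 12 h, against 1459, 2234 and 1491 in DMSO 12 h. GSI libraries 1 and 3 were above all DMSO libraries, while library 2 was below DMSO library 2. The log2 fold change of 0.68 ± 0.33 missed the threshold (adjusted p = 0.148, limma). FOS (ENSG00000170345) had 1465, 858 and 715 in GSI 12 h, against 953, 648 and 507 in DMSO 12 h, higher in each same-numbered pair but overlapping between groups. Its log2 fold change was 0.51, with a 95% interval of −0.44 to 1.46 and an adjusted p of 0.430 in limma. FOSB (ENSG00000125740), which was scarce, averaged 36.8 ± 9.21 in GSI 12 h and 66.7 ± 24.9 in DMSO 12 h (SD, n = 3 each), a log2 difference of −0.79 ± 0.31 with an adjusted p of 0.0831 in limma. BATF (ENSG00000156127) averaged 612 ± 136 in GSI 12 h and 659 ± 215 in DMSO 12 h, and BATF3 (ENSG00000123685) 27.4 ± 5.29 and 38.8 ± 18.4 in the same groups (SD, n = 3 each); both missed the threshold, at adjusted p of 0.853 and 0.490 in limma.

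**Figure D2:**
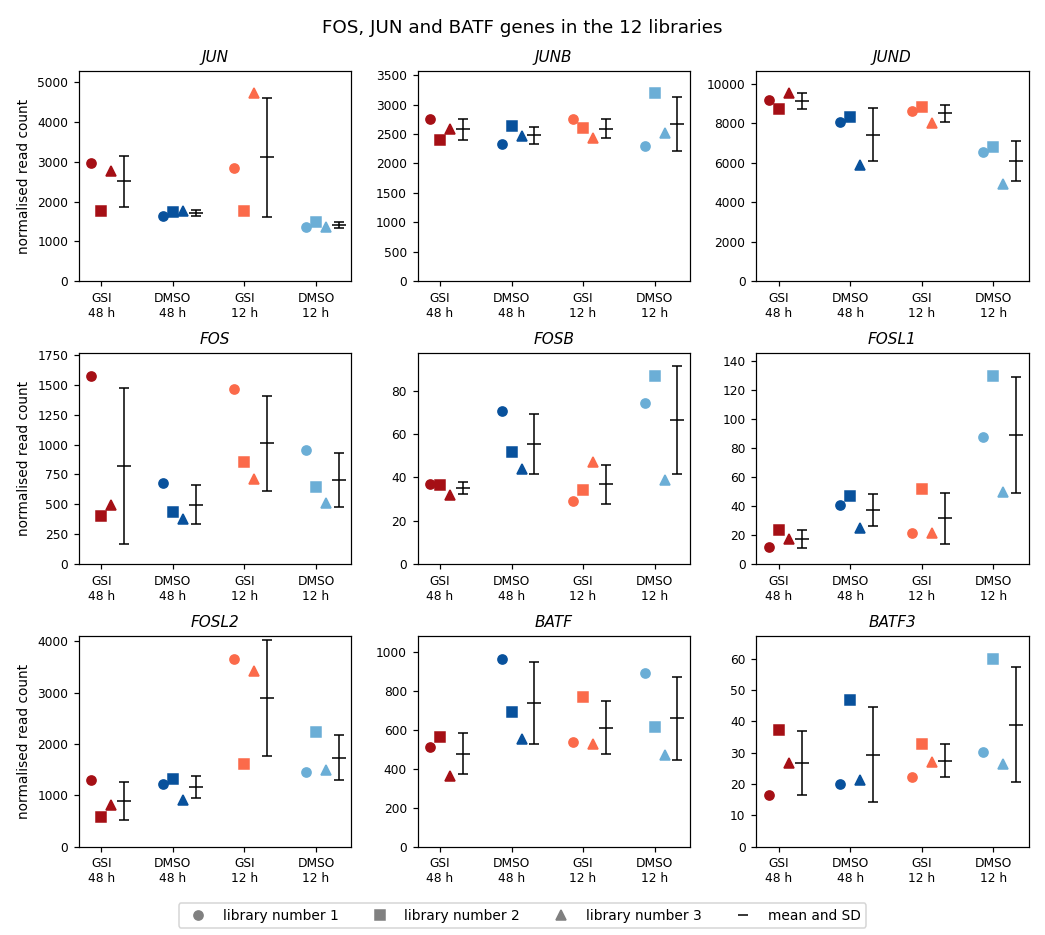
Normalised read counts of the 9 genes in each library, by labelled group, with marker shapes for the library numbers and black bars for the mean and SD of 3 libraries. JUN and JUND lie higher in the GSI 12 h than in the DMSO 12 h libraries without overlap, and FOSL2 in GSI 12 h splits into libraries 1 and 3 at 3662 and 3418 and library 2 at 1601.

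At 12 h JUN and FOSL2 were high in the same GSI libraries as the hypoxia list. GSI libraries 1 and 3, with list levels of 1.46 and 1.72, were also the highest for JUN and FOSL2, and library 2, with a list level of 0.17, was the lowest of its group for both. Of the 35 list genes, 30 rose and 0 fell at 12 h, where 21.5% of all genes were called, with a median log2 fold change of 1.88. The part of this list in the JUN and FOSL2 values was not tested. Without both GSI libraries numbered 2, limma called FOSL1, FOSL2 and JUN at 12 h, where 29.8% of all genes were called. FOSL2 was at 1.06 (adjusted p = 0.00741, limma) and JUND at 0.46 (adjusted p = 0.0527, limma). As library 2 was the lowest of GSI 12 h for JUN and FOSL2, leaving it out had to raise both differences, and nothing is concluded from it. Leaving out 1 library at a time, limma called 0 members without GSI 12 h library 1, where 8.29% of all genes were called. It called only JUND without DMSO 12 h library 2 (9.13% of all genes) or without GSI 12 h library 3 (12.1%). Without GSI 12 h library 2 it called FOSL1, FOSL2, JUN and JUND (29.4%). It called JUN and JUND without DMSO 12 h library 1 (15.5%), and FOSB, FOSL1 and JUN without DMSO 12 h library 3 (17.3%). Calls over all genes thus moved with those of the members.

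**Figure D3:**
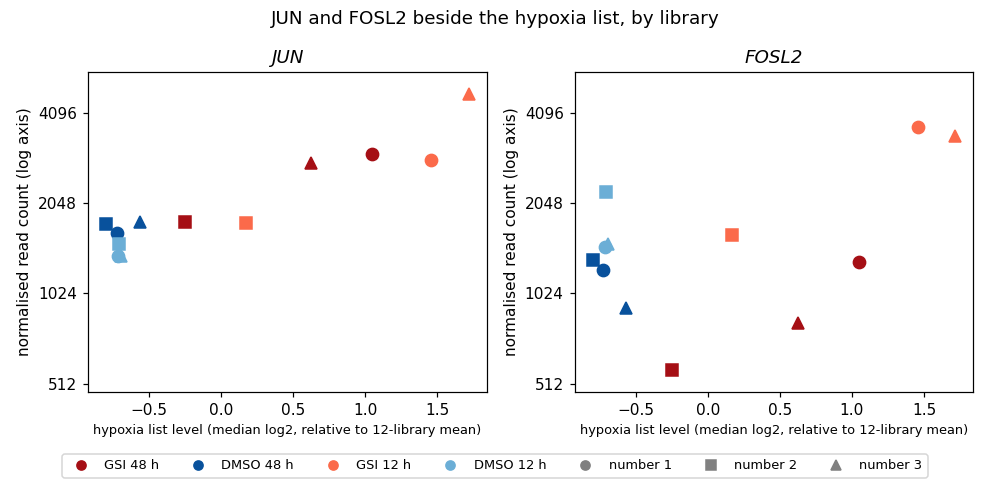
Normalised read count of JUN (left) and FOSL2 (right), on a log axis, against the level of the 35 hypoxia response genes in the same library. GSI 12 h libraries 1 and 3 combine list levels of 1.46 and 1.72 with the highest JUN and FOSL2 counts of their time, while at 48 h FOSL2 is at 1302 at a list level of 1.05.

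Other genes around AP-1 were compared at 12 h as well. Among 24 measured bZIP relatives 1 rose and 3 fell. ATF1, a CREB relative, fell by 0.46 on the log2 scale, and NFIL3, a bZIP repressor, rose by 0.81. Among 24 kinases and factors upstream of FOS and JUN 3 rose and 2 fell. The risers were the ERK pathway kinases MAPK3 (ERK1), at 0.71, MAP2K2, at 0.54, and MAP2K1, at 0.39, and the factors SRF and ELK4, which bind the serum response element, fell by 0.43 and 0.39. Of 27 other immediate early genes 3 rose and 1 fell: the orphan receptor NR4A1 (1.24), the antiproliferative gene BTG2 (0.83) and the mRNA-decay factor ZFP36 (0.68) rose, and the MAP kinase phosphatase DUSP2 (−0.69) fell. Of 17 AP-1 target genes 1 rose and 2 fell: IL2, a T-cell growth factor, averaged 62.7 in GSI 12 h and 20.8 in DMSO 12 h, and CXCL8, a chemokine, and CCND1, cyclin D1, fell by 1.29 and 0.95 on the log2 scale. Of 7 measured BATF, IRF and NFAT partners only NFATC3 was called in limma, at −0.32. These shares, from 1 of 7 to 5 of 24, lay not far below the 21.5% of all genes, and nothing is read from them.

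At 48 h none of the 9 genes was called between the GSI and DMSO labels, against 9.68% of all genes. edgeR and DESeq2 on the recovered reads called 0 members too, and 3 members, FOSL1, JUND and BATF, and 5768 genes in all had an unadjusted p under 0.05 in limma. The groups did not overlap for 4 of 9 members, JUN, JUND, FOSB and FOSL1, where 35.4% of all genes did not overlap. The members' median log2 fold change was −0.09, beside −0.0039 for all genes.

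JUN had 2973, 1773 and 2776 in GSI 48 h, against 1630, 1748 and 1772 in DMSO 48 h. Library 2 labelled GSI exceeded the highest DMSO library by less than 2 normalised reads, and libraries 1 and 3 were well above. Its log2 fold change was 0.51 ± 0.27 (adjusted p = 0.224, limma). Without both GSI libraries numbered 2 it was 0.74 (adjusted p = 0.0125, limma), when 21.0% of all genes were called. Library 2 held the lowest JUN value of GSI 48 h, so leaving it out had to raise the difference, and nothing is concluded from it. JUND had 9171, 8711 and 9510 in GSI 48 h, against 8065, 8294 and 5869 in DMSO 48 h, so that DMSO library 3 was the one far below the others. Its log2 fold change was 0.32 ± 0.14 (adjusted p = 0.145, limma). JUNB averaged 2584 ± 179 in GSI 48 h and 2478 ± 149 in DMSO 48 h (SD, n = 3 each), an interval of −0.19 to 0.31 on the log2 scale.

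FOSL1 was the member with the widest difference at 48 h, as it was at 12 h. It had 11.5, 23.8 and 17.3 in GSI 48 h, against 40.5, 46.8 and 24.7 in DMSO 48 h, with every GSI library lower. The log2 fold change was −1.06 ± 0.43 (adjusted p = 0.122, limma). BATF had 513, 563 and 362 in GSI 48 h, against 967, 694 and 554 in DMSO 48 h, lower in each same-numbered pair, with a log2 fold change of −0.61 ± 0.26 (adjusted p = 0.137, limma). The library numbers paired the samples only weakly at 48 h, with correlations of 0.10 to 0.16. With the number as a replicate block limma called 2 members, FOSL1 (adjusted p = 0.0204) and BATF (adjusted p = 0.0318), beside 27.3% of all genes. FOSB averaged 35.1 ± 2.74 in GSI 48 h and 55.4 ± 13.8 in DMSO 48 h, a log2 difference of −0.62 (adjusted p = 0.197, limma).

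FOS itself had 1575, 398 and 492 in GSI 48 h, against 682, 433 and 375 in DMSO 48 h. Library 1 labelled GSI alone carried the higher group mean: without it the log2 fold change was −0.12 in place of 0.49. FOSL2 had 1302, 570 and 815 in GSI 48 h, against 1227, 1322 and 914 in DMSO 48 h, a log2 fold change of −0.43 ± 0.33 (adjusted p = 0.395, limma). BATF3 averaged 26.8 ± 10.3 in GSI 48 h and 29.3 ± 15.1 in DMSO 48 h (SD, n = 3 each). For FOS, FOSL2 and BATF3 the groups overlapped.

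**Figure D4:**
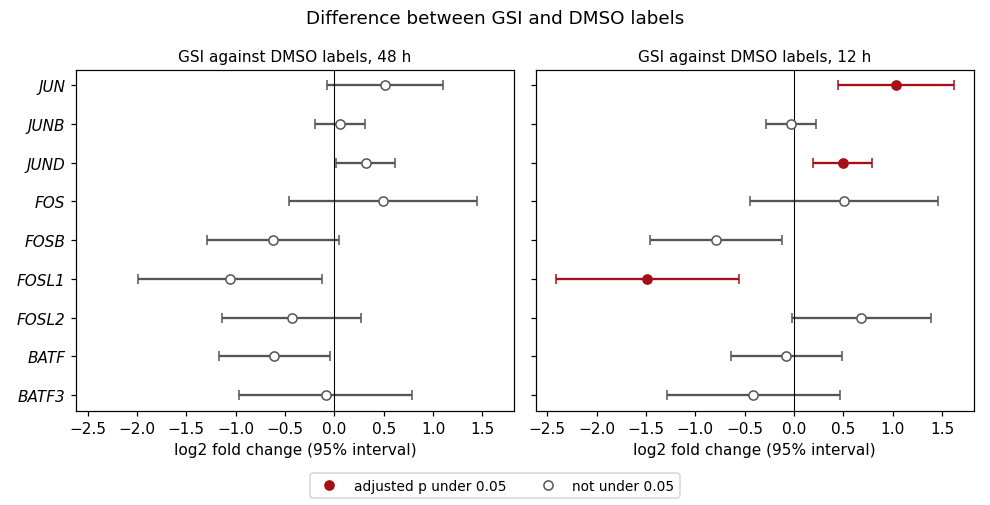
Log2 fold changes between GSI and DMSO labels with 95% intervals from limma, at 48 h (left) and 12 h (right), filled in red where the adjusted p was under 0.05. JUN (1.03), JUND (0.49) and FOSL1 (−1.49) are filled at 12 h and none at 48 h.

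Other immediate early genes did pass the test at 48 h. Of 27 measured, 5 rose and 1 fell, where 9.68% of all genes were called, 4.33% higher and 5.35% lower. The counts of the other lists in this paragraph stand beside the same share. The zinc finger factors EGR1, EGR2 and EGR3, which share serum response factor control with FOS, averaged 4866, 111 and 76.8 in GSI 48 h and 1196, 15.5 and 13.3 in DMSO 48 h. Their log2 fold changes were 1.97, 2.80 and 2.46, with adjusted p of 0.0410, 0.0201 and 0.00309 in limma. NR4A1 averaged 391 in GSI 48 h and 97.5 in DMSO 48 h, BTG2 rose by 0.96 on the log2 scale, and DUSP5, an ERK phosphatase, fell by 0.66. Of 17 AP-1 target genes 0 rose and 2 fell, CCND1 with a log2 fold change of −1.96 and TIMP1, a metalloproteinase inhibitor, which averaged 1550 in GSI 48 h and 3131 in DMSO 48 h. Among the 24 bZIP relatives MAFK, a small MAF factor, rose by 0.38 and ATF1 fell by 0.46, and among the 24 upstream factors SRF fell by 0.33. None of the 7 BATF, IRF and NFAT partners was called by limma, 1 having an unadjusted p under 0.05, and BCL6 had the smallest adjusted p, at 0.0585. Of the 35 hypoxia response genes 14 rose and 0 fell, with a median of 1.25.

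The difference between the 2 treatment effects, 48 h minus 12 h, was called for no member and for 0 of 19281 genes by limma, for 0 by edgeR and for 61 (0.316%) by DESeq2, none a member. At an unadjusted p under 0.05 limma had 875 genes, with FOSL2 as the 1 member among them. The effect on FOSL2 was −0.43 at 48 h and 0.68 at 12 h, a difference of −1.11 ± 0.46 (adjusted p = 0.999, limma), and that on BATF was −0.61 at 48 h and −0.08 at 12 h. With the numbers as a block within each treatment, limma called the difference for these 2 members, FOSL2 (adjusted p = 0.00356) and BATF (adjusted p = 0.0350), beside 6.10% of all genes. The JUN call at 12 h and its absence at 48 h are not shown to differ: the difference was −0.52 with a 95% interval of −1.35 to 0.31.

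Over time, FOSL2 fell in the libraries labelled GSI. It had 1302, 570 and 815 in GSI 48 h, against 3662, 1601 and 3418 in GSI 12 h, lower in all 3 same-numbered pairs and without overlap. The log2 fold change was −1.68 ± 0.33, about 0.312-fold, with an adjusted p of 0.00980 in limma. It was the 1 of 9 members called, where 3.98% of all genes were called, 2.37% lower. No overlap was seen for 1 of 9 members and for 19.9% of all genes. The call was lost in a fit of these 2 groups alone (adjusted p = 0.0536, limma) and without GSI 12 h library 1 (adjusted p = 0.0530, log2 fold change −1.47). The hypoxia list also lay lower in GSI 48 h than in GSI 12 h in each number, and its part in the FOSL2 value was not tested.

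In the libraries labelled DMSO none of the 9 was called over time, against 4.53% of all genes. edgeR and DESeq2 called 0 members as well, and 1 member, FOSL1, and 3364 genes in all had an unadjusted p under 0.05 in limma. FOSL2 had 1227, 1322 and 914 in DMSO 48 h, against 1459, 2234 and 1491 in DMSO 12 h, again without overlap, with a log2 fold change of −0.57 ± 0.33 (adjusted p = 0.424, limma). FOSL1 had 40.5, 46.8 and 24.7 in DMSO 48 h, against 87.6, 130 and 49.5 in DMSO 12 h, with a log2 fold change of −1.17 ± 0.43 (adjusted p = 0.159, limma). JUN, without overlap as well, averaged 1717 ± 75.8 in DMSO 48 h and 1406 ± 74.5 in DMSO 12 h (SD, n = 3 each), a difference of 0.29 on the log2 scale. Non-overlap held for these 3 of 9 members and for 24.3% of all genes.

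The library numbers paired the samples most clearly over time, and here the block changed the calls. With the numbers as a block within treatment, limma called FOS, FOSL1, FOSL2 and JUND between the DMSO groups, beside 29.2% of all genes, and FOS, FOSL1, FOSL2 and BATF between the GSI groups, beside 28.8%. FOS was −0.48, −0.58 and −0.43 on the log2 scale in DMSO pairs 1, 2 and 3 (adjusted p = 0.0380) and 0.10, −1.11 and −0.54 in the GSI pairs (adjusted p = 0.0346). FOSL1 was lower at 48 h in all 6 pairs, with adjusted p of 0.00167 in DMSO and 0.0226 in GSI. FOSL2 was lower in all 6 pairs as well, with adjusted p of 0.00361 in DMSO and 2.44e-06 in GSI. JUND was higher at 48 h in each DMSO pair, by 0.30, 0.28 and 0.25 (adjusted p = 0.00176). BATF was lower at 48 h in each GSI pair (adjusted p = 0.0126) and higher in each DMSO pair, by 0.12, 0.17 and 0.24 (adjusted p = 0.181). JUNB, FOSB, BATF3 and JUN were called over time by neither fit in either treatment.

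Set in order over the 4 groups, JUND averaged 9130 in GSI 48 h, 8494 in GSI 12 h, 7409 in DMSO 48 h and 6099 in DMSO 12 h, and each neighbour in this order overlapped the next. JUN was highest in the GSI groups, at 2507 in GSI 48 h and 3106 in GSI 12 h, which overlapped, and lower at 1717 in DMSO 48 h and 1406 in DMSO 12 h. Of these, DMSO 48 h did not overlap GSI 48 h. DMSO 48 h reached 1772 in library 3 and so overlapped GSI 12 h, whose library 2 was at 1759. DMSO 12 h did not overlap DMSO 48 h. FOSL1 ran upward through 17.5 in GSI 48 h, 31.6 in GSI 12 h, 37.3 in DMSO 48 h and 89.0 in DMSO 12 h, and of the neighbours in this order the last 2 did not overlap. FOSL2 was lowest at 48 h, at 896 in GSI and 1154 in DMSO, which overlapped, and highest in GSI 12 h, at 2894, overlapping DMSO 12 h, at 1728. The order of these means is a description of 3 libraries each.

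**Figure D5:**
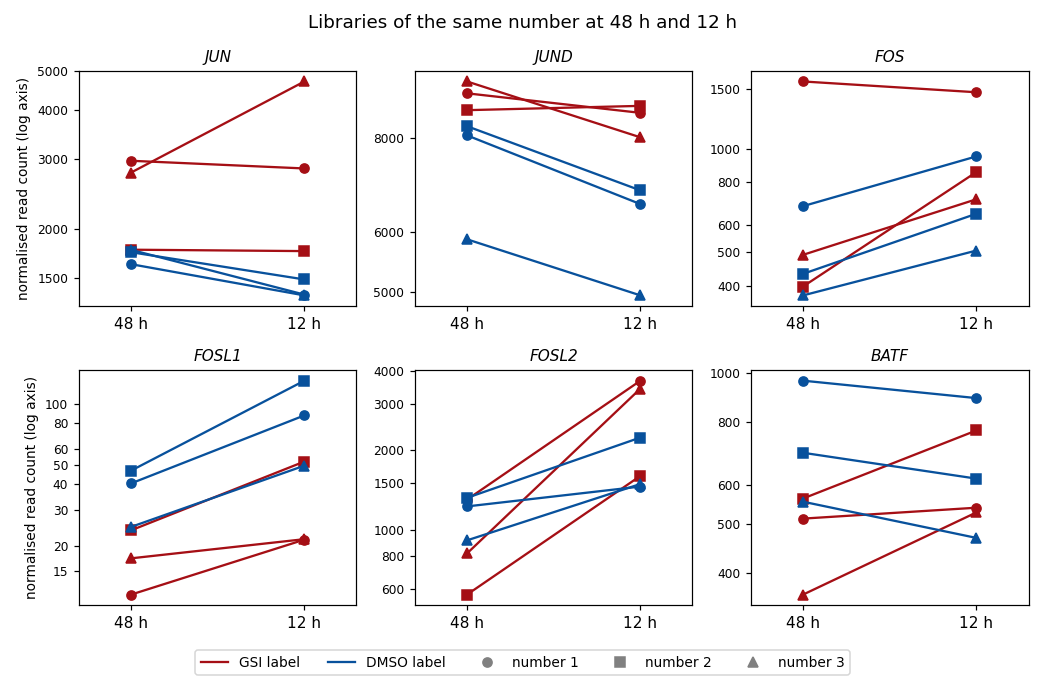
Normalised read counts, on log axes, of 6 genes at 48 h and 12 h, with a line joining the libraries of the same number and treatment label. FOSL1 and FOSL2 are lower at 48 h on all 6 lines, while BATF is lower at 48 h on the 3 GSI lines and higher on the 3 DMSO lines.

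Of the 27 other immediate early genes measured, 6 rose, 0 fell and 21 were not called over time in DMSO, where 4.53% of all genes were called. In GSI 7 rose, 1 fell and 19 were not called, where 3.98% of all genes were called. TRIB1, a pseudokinase, had log2 fold changes of 1.47 in DMSO and 2.34 in GSI, BTG2 of 1.03 in DMSO and 1.16 in GSI, and SGK1, a survival kinase, of 1.15 in DMSO and 0.63 in GSI. EGR2 and EGR3 rose by 3.99 and 2.52 in GSI, from very low levels at 12 h. EGR2 averaged 111 in GSI 48 h and 7.77 in GSI 12 h, and EGR3 averaged 76.8 in GSI 48 h and 12.9 in GSI 12 h. With so few normalised reads at 12 h, the sizes of these EGR2 and EGR3 changes are uncertain. Of the 17 AP-1 target genes 1 rose and 2 fell in DMSO and 0 rose and 2 fell in GSI: IL2 rose by 1.75 on the log2 scale in DMSO. The cytokine IL4 averaged 589 in DMSO 48 h and 2281 in DMSO 12 h, and 426 in GSI 48 h and 1330 in GSI 12 h, and the log2 fold change of CCND1 was −1.32 in DMSO and −2.34 in GSI. Among the 24 bZIP relatives BACH2, a lymphoid repressor, rose by 0.97 on the log2 scale in DMSO, and none was called in GSI, where 7 had an unadjusted p under 0.05. None of the 24 upstream factors was called over time by limma, with 6 in DMSO and 8 in GSI at an unadjusted p under 0.05. NFATC3 was the 1 of 7 BATF, IRF and NFAT partners called over time, in GSI, at 0.27.

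Across the 12 libraries the genes whose log2 values followed a member most closely were found among 12413 genes, as a description that carries no p. For JUN they were IGBP1 (Pearson r = 0.97), FEM1C (0.96) and VLDLR (0.96), the last a gene of the hypoxia list. For FOSL2 they were RIPK4 (0.94), CALHM6 (0.94) and GGA2 (0.93), and for FOS ABCB9 (0.91), ITGB2-AS1 (0.91) and NPHP4 (0.90). JUND was closest to PGPEP1 (0.95), which lies on the same chromosome with 1 coding gene between them, then INSIG1 (0.94) and SPOCK2 (0.94). JUNB was closest to ZDHHC18 (0.91), CHST7 (0.87) and SLC41A1 (0.85), and BATF to the death receptor FAS (0.94), the interferon-induced IFIT3 (0.93) and SIRPG (0.92). Between members the correlations were lower, for example 0.58 for FOS with FOSL2 and 0.55 for JUN with JUND. All these points share the libraries, the 4 groups and the depth.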

How the data were processed

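The submitters' processing notes name the build hg19 and the tools TopHat2 2.0.10, HTSeq 0.6.1, FastQC 0.10.1 and DESeq2, without settings or roles. What the authors deposited is a signal: reads per gene, scaled by a size factor for each library. Whole reads were recovered from the steps of the values (100% whole within 0.01), and edgeR 4.0.16 and DESeq2 1.42.0 were run on them as alternatives. The main test was limma 3.58.1 (R 4.3.3) on log2(value + 1), with a trended prior, a scale that understates changes of low genes, over all 12 libraries with a mean per group. Genes reaching 10 in 3 or more libraries were tested (19281, among them all 9 members), and a gene was called where its p, adjusted by Benjamini-Hochberg over all of them, was under 0.05; the fit was checked on simulated counts. SE is the moderated standard error. Lengths are the union of GENCODE 29 exons, and symbols matched 50127 of 62069 identifiers.

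Same-numbered libraries deviated together over time (correlations 0.40 to 0.61) and weakly at 48 h between treatments (0.10 to 0.16), so block values are given there. At 12 h between treatments the correlations were 0.096, 0.272 and 0.068 for numbers 1, 2 and 3, above those of other numbers for number 2 only. Under upper-quartile scaling 2536 of 4121 called genes were higher at 12 h and 1220 of 1902 at 48 h, against 1943 of 4144 and 834 of 1866 in the main fit. All 9 members were named (1 gene of another list is not reported here), with up to 4 genes of smallest p per list and the 3 closest genes of each member with a mean of at least 100. ELK4 at 12 h, EGR1 and DUSP5 at 48 h and SGK1 over time in GSI were named after their values were seen. Members and lists were chosen with earlier results of these data known. No 2 libraries of the same group agreed within sampling noise. Pseudocounts, filters, scalings, tools, replicate blocks and left-out libraries were tried as alternatives.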

Additional observations from a re-analysis of the deposited data

Results flagged for a closer look

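With the library numbers as a block within treatment, limma called a difference between the GSI effect at 48 h and that at 12 h for 2 members. The same fit called 6.10% of all genes. For FOSL2 the difference was −1.11 on the log2 scale (adjusted p = 0.00356), the effect being −0.43 at 48 h and 0.68 at 12 h. For BATF it was −0.53 (adjusted p = 0.0350), the effect being −0.61 at 48 h and −0.08 at 12 h. Without the block, limma called neither difference, and 0 of 19281 genes.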

How the results depend on the processing

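At 12 h the count of members called stayed at 3 or 2 under other pseudocounts, filters, scalings and tools. With a replicate block it was 3, JUN, JUND and FOSL1 (adjusted p 0.00819, 0.00615 and 0.00281, limma), beside 36.1% of all genes. Only number 2 clearly paired those samples. The count ranged from 0 to 4 with 1 library left out, beside 8.29% of all genes at 0 and 29.4% at 4. FOSL1 was the least stable of them: it missed the threshold without a filter on low values (adjusted p = 0.0501) and without any of DMSO 12 h libraries 1 or 2 or GSI 12 h libraries 1 or 3. JUND missed it without DMSO 12 h library 3 (adjusted p = 0.0892), where FOSB was called at −1.13 (adjusted p = 0.0221). The count at 48 h was 2 with a replicate block (27.3% of all genes) and 2 without both GSI libraries numbered 2 (21.0%). It was 0 with any 1 library left out, when 0.617% to 15.7% of all genes were called. Over time in DMSO it was 1 with a replicate block (12.3%) and 4 with the block within treatment (29.2%), against 0 (4.53%). In GSI it was 0 with only the groups compared (2.47%) and 4 with the block within treatment (28.8%), against 1 (3.98%). With 1 library left out it was 0 to 1 in GSI. For the difference of effects it was 2 with the block within treatment (6.10%). The replicate block changed no other member's call.

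No called value changed sign. Of 1048 recomputed member values 39 changed sign, all of members not called. Under upper-quartile scaling JUNB was 0.057 and BATF 0.0093 at 12 h. Over time in GSI, JUNB was 0.00019 under TMM scaling, 0.031 under upper-quartile scaling, 0.00074 in edgeR and 0.047 without both GSI libraries numbered 2, and BATF3 was 0.014 in edgeR. The difference of effects for FOS was 0.20 in edgeR, 0.20 in DESeq2 and 0.28 without both GSI libraries numbered 2. With 1 library left out, values that crossed zero ranged at 12 h from −0.13 to 0.10 for JUNB and −0.30 to 0.16 for BATF, and at 48 h from −0.12 to 0.87 for FOS and −0.35 to 0.29 for BATF3. Over time in DMSO the ranges were −0.56 to 0.015 for FOSB, −0.20 to 0.037 for JUNB and −0.044 to 0.42 for BATF. In GSI they were −0.19 to 0.14 for FOSB, −0.58 to 0.13 for JUN, −0.055 to 0.045 for JUNB and −0.35 to 0.21 for BATF3. For the difference of effects they were −0.62 to 0.37 for FOS, −0.057 to 0.51 for FOSB, −0.043 to 0.19 for JUNB and −0.029 to 0.71 for BATF3. The causes were not tested.

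Calls over all genes ranged more widely: 1599 to 6951 against 4144 at 12 h, 119 to 5261 against 1866 at 48 h, 353 to 5622 against 874 in DMSO over time, 427 to 5544 against 768 in GSI over time, and 0 to 1177 against 0 for the difference. Depth limits FOSL1, FOSB and BATF3, which rest on as few as 9, 24 and 13 reads in a library.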
